A study of Mus musculus with 16 samples.

Results

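The interaction of genotype and diet was measured in whole kidneys of male mice as the change with high fat diet (HFD) in mice with an inducible, nephron-specific knockout of PGC-1α (NiPKO) minus the change with HFD in control (CTRL) mice. All 16 arrays of the series entered it, 4 in each of 4 groups, and it was computed for all 22180 genes that had a probe set annotated to a single symbol. The groups were NiPKO mice on HFD, NiPKO mice on chow, CTRL mice on HFD and CTRL mice on chow. NiPKO mice carried the Pax8-rtTA and (tetO-cre)-LC1 transgenes together with floxed alleles of PGC-1α, in which doxycycline (DOX) in the drinking water excises exons 3 to 5 in the tubule but not in the glomerulus. The drinking water held 0.2 mg/ml DOX over 2 weeks, starting at 12 weeks of age, and the study also detected recombination in the liver. The CTRL mice were littermates on the same mixed strain background, and their genotype was not given in more detail. HFD held 60 kcal% fat and chow 10 kcal% fat, and both were fed for 20 weeks.

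PGC-1α, encoded by Ppargc1a, is a transcriptional coactivator. It binds nuclear receptors such as ERRα and the PPARs on their DNA sites and raises the transcription of genes for mitochondrial respiration and fatty acid oxidation. PPARα is a receptor for fatty acids that turns on their transport and oxidation, and in the proximal tubule fatty acids are a main fuel. An interaction asks whether the kidney's response to dietary fat itself differed between mice with and without tubular PGC-1α. A positive interaction means that HFD minus chow was higher in NiPKO than in CTRL kidneys, and a negative one that it was lower. The same number also gives NiPKO minus CTRL on HFD, less NiPKO minus CTRL on chow.

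The probe set of Ppargc1a read 9.96, 9.96, 10.07 and 9.96 on the log2 scale in HFD NiPKO kidneys, 9.91, 10.18, 10.05 and 10.09 in chow NiPKO kidneys, 9.57, 9.52, 9.45 and 9.32 in HFD CTRL kidneys and 9.68, 9.59, 9.56 and 9.60 in chow CTRL kidneys. Every NiPKO array thus read above every CTRL array. Which exons this probe set covers was not known, so its level does not check the deletion of exons 3 to 5. Its interaction was 0.08 (standard error 0.09, adjusted p = 0.86). The 12 defining tubule and glomerulus genes measured, among them Lrp2 and Slc34a1 of the proximal tubule, Umod of the loop of Henle and Aqp2 of the collecting duct, read between 6.58 and 13.1 on every array. Pairs of arrays correlated at 0.986 to 0.992 over all genes.

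No gene passed a Benjamini-Hochberg adjusted p of 0.05 in the interaction (0% of genes, limma). The smallest adjusted p was 0.12. Without adjustment 1828 genes, 8.24%, had a p below 0.05. The ordinary linear model, without limma's shared estimate of the spread, gave 1 gene after adjustment, Ssxa1. At the study's own array thresholds, which are p below 0.05 without adjustment together with a fold change above 1.2, 1274 genes were called (5.74%), 452 positive (2.04%) and 822 negative (3.71%). The sizes were small. Over the called genes the size had a median of 0.35 (log2), and 7 exceeded a 2-fold difference between the diet responses. With a median standard error of 0.12 over all genes, the 95% interval of a typical gene spanned 0.25 to either side. All calls below are at these unadjusted thresholds, and each printed adjusted p is limma's over all 22180 genes.

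The direction of the calls moved with the brightness of the genes. Among the genes above the median level the median interaction was 0.05, with 298 positive and 151 negative calls, whereas among those below it the median was -0.06, with 154 positive and 671 negative calls. The spread of levels over the genes of an array, taken as the interquartile range, moved the same way. It was 3.41 to 3.50 in HFD NiPKO, 3.36 to 3.45 in chow NiPKO, 3.37 to 3.45 in HFD CTRL and 3.44 to 3.54 in chow CTRL kidneys. After quantile normalization, which gives every array the same spread, both medians were below 0.01 in size and 994 genes were called, 481 of them positive. The share of positive calls was 35.5% as deposited and 48.4% after quantile normalization, 46.3% with the arrays centred to a common median, and 66.9% when the genes above the median level were fitted alone. Of the 1274 genes, 781 were called with the same sign after quantile normalization, 326 positive and 455 negative. The part of array spread in the calls that were lost was not tested.

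**Figure D1:**
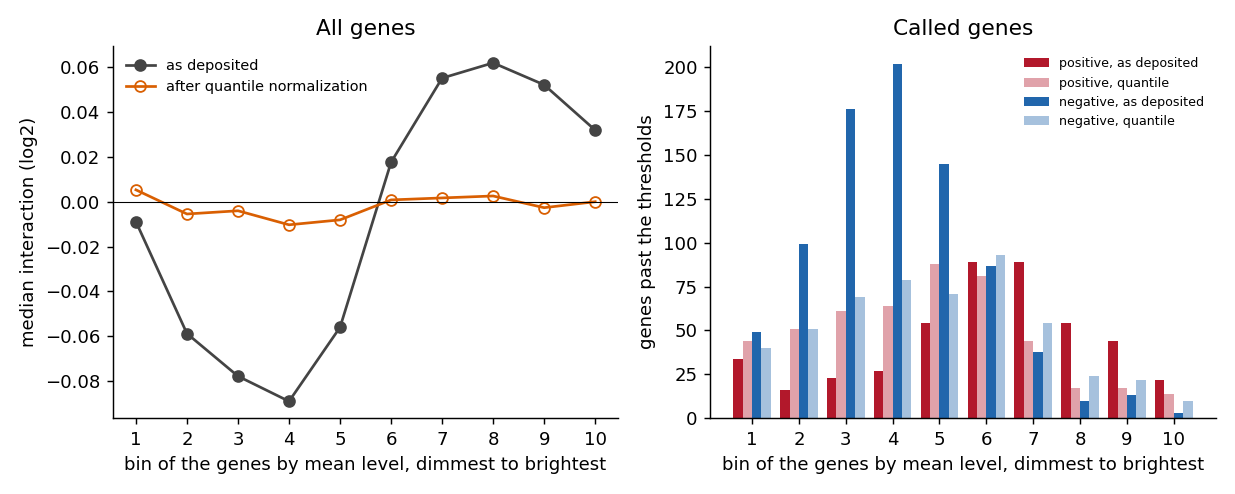
The genes are split by mean level into 10 bins of equal size, dimmest on the left. The left panel gives the median interaction (log2) and the right panel the number of genes past the thresholds in each direction, as deposited and after quantile normalization. As deposited, medians were below 0 in the dimmer bins and above 0 in the brighter ones, and after quantile normalization they lay close to 0 throughout.

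Of the 1274 called genes, 1159 (91.0%) had diet responses of opposite sign in the 2 genotypes, against 44.3% of all genes. Choosing genes by a large difference between responses that are mostly small favours opposite signs, so this share describes the called genes and is not a result apart from their choice. HFD was above chow in NiPKO and below chow in CTRL kidneys for 381 of them, and below chow in NiPKO and above chow in CTRL kidneys for 778. The remaining genes had responses of the same sign, larger in NiPKO kidneys for 56 and larger in CTRL kidneys for 59. Single diet responses were mostly short of the thresholds. For 249 genes the response was called in NiPKO alone, for 268 in CTRL alone, for 17 in both and for 740 in neither. In the diet comparisons themselves, HFD raised 501 genes (2.26%) and lowered 491 (2.21%) in NiPKO kidneys, and raised 511 (2.3%) and lowered 519 (2.34%) in CTRL kidneys. At an adjusted p under 0.05 the numbers were 58 in NiPKO and 125 in CTRL kidneys. The group whose mean lay farthest from the other 3 was HFD NiPKO for 258 of the called genes, chow NiPKO for 362, HFD CTRL for 287 and chow CTRL for 367. Thus no group stood apart in most of them. Chow CTRL kidneys were below the others for 277 of their 367 genes, and these 277 all had a negative interaction. The farthest group was not counted over all genes or after quantile normalization. That normalization left 481 positive and 513 negative calls. The part of array spread in the count of 277 was not tested.

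**Figure D2:**
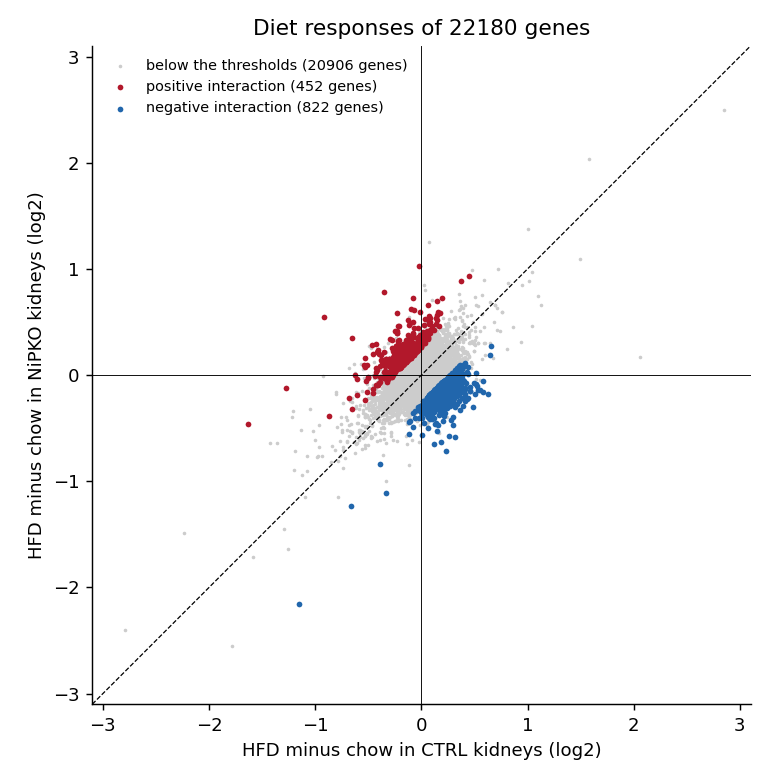
Each point is a gene, with HFD minus chow in NiPKO kidneys on the vertical axis and HFD minus chow in CTRL kidneys on the horizontal axis (log2), and equal responses lie on the dashed line. The 452 genes with a positive interaction lie above the line and the 822 with a negative one below it, mostly in the quadrants of opposite responses and within 1 log2 unit of 0.

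Among the genes with the smallest p, positive interactions were found for a ribosome assembly kinase, an endothelial receptor and several regulators of transcription. Riok1 encodes a kinase needed to mature the small ribosomal subunit. It read 6.45, 6.46, 6.48 and 6.42 in HFD NiPKO, 6.27, 6.04, 6.18 and 6.04 in chow NiPKO, 6.09, 6.24, 6.21 and 6.08 in HFD CTRL and 6.33, 6.26, 6.53 and 6.37 in chow CTRL kidneys. HFD was above chow in NiPKO and below chow in CTRL kidneys, without overlap in either genotype, and the interaction was 0.54 (standard error 0.10, adjusted p = 0.18). Cd93, a surface receptor of endothelial and myeloid cells, read 7.58, 7.60, 7.46 and 7.46 in HFD NiPKO, 7.30, 7.37, 7.34 and 7.24 in chow NiPKO, 7.44, 7.28, 7.31 and 7.51 in HFD CTRL and 7.82, 7.65, 7.88 and 7.59 in chow CTRL kidneys. The diets again did not overlap in either genotype, in opposite directions (0.57, standard error 0.10, adjusted p = 0.18). Such a crossing without overlap in both genotypes was seen for 11 of the 1274 called genes. It was not counted over all genes. The called genes were chosen for a large difference between the diet responses, so this count only describes them.

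Zfp180 and Zfp317, zinc finger genes, had interactions of 0.46 and 0.38. For Zfp317 the difference lay on the CTRL side, with 7.06, 7.04, 6.93 and 7.01 in HFD NiPKO and 6.98, 6.95, 6.96 and 6.98 in chow NiPKO kidneys, against 6.78, 6.81, 6.86 and 6.67 in HFD CTRL and 7.13, 7.18, 7.04 and 7.12 in chow CTRL kidneys. For Tet2, an enzyme that oxidises methylated cytosine in DNA, it lay on the NiPKO side. Tet2 read 9.88, 9.77, 9.92 and 9.66 in HFD NiPKO and 9.30, 8.96, 9.06 and 9.13 in chow NiPKO kidneys, and 9.23, 9.46, 9.43 and 9.47 in HFD CTRL and 9.24, 9.18, 9.21 and 9.36 in chow CTRL kidneys. HFD thus raised Tet2 by 0.69 in NiPKO kidneys (adjusted p = 0.0028), against 0.15 in CTRL kidneys (adjusted p = 0.45), and the interaction was 0.54 (standard error 0.11, adjusted p = 0.34). Noct, a circadian phosphatase gene, was raised by HFD by 0.89 in NiPKO kidneys (adjusted p = 0.0028) and by 0.37 in CTRL kidneys at the unadjusted thresholds, with an interaction of 0.52 (standard error 0.15, adjusted p = 0.48).

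The most positive sizes belonged to genes of varied function. The 15 largest that could be named ran between 0.63 and 1.46. Among them were Lad1, Ntn4 and Mmp13 of the basement membrane and matrix, the carriers and channel Slc16a14, Slc4a11 and Kcnj2, the innate defence genes Defb2, Iigp1 and Bst1, the proteases and inhibitor Klk1b8 and Pzp, and the regulators Zbtb16 and Rsl1. The others were Cyp4f15, a fatty acid hydroxylase gene, and Ahcy, whose enzyme removes the product of methylation reactions. In 13 of the 15 the diet responses had opposite signs.

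Zbtb16, a transcription factor induced by glucocorticoids, and Pzp, a protease inhibitor of the α2-macroglobulin family, were exceptions in which both responses were below 0. Zbtb16 read 7.78, 6.84, 6.94 and 6.76 in HFD NiPKO, 7.16, 7.66, 7.38 and 7.97 in chow NiPKO, 6.80, 6.47, 5.79 and 6.24 in HFD CTRL and 8.79, 7.48, 8.13 and 7.46 in chow CTRL kidneys. The difference of -0.46 in NiPKO kidneys (adjusted p = 0.53) stood against CTRL kidneys, in which it fell by 1.64 (adjusted p = 0.022), and the interaction was 1.17 (standard error 0.42, adjusted p = 0.52). Pzp read 10.82, 10.35, 10.05 and 10.22 in HFD NiPKO, 10.09, 10.78, 10.67 and 10.39 in chow NiPKO, 9.14, 9.27, 8.20 and 9.71 in HFD CTRL and 9.83, 10.23, 10.82 and 10.56 in chow CTRL kidneys. Here the HFD CTRL kidneys lay below all others, and the interaction was 1.16 (standard error 0.39, adjusted p = 0.49).

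Lad1, which encodes the basement membrane protein ladinin, read 10.03, 9.70, 10.12 and 10.13 in HFD NiPKO and 9.38, 9.31, 9.31 and 9.48 in chow NiPKO kidneys, without overlap. In HFD CTRL kidneys it read 9.64, 9.52, 9.53 and 9.99 and in chow CTRL kidneys 10.04, 9.45, 10.07 and 9.51, which overlapped (interaction 0.73, standard error 0.20, adjusted p = 0.47). Ntn4, a netrin of the basement membrane, had the same layout at 0.63. Ahcy had the largest size, 1.46, and the largest error among them, 0.63. Its arrays spread between 8.34 and 10.65 within and across the groups, and the mean of its 2 probe sets gave 0.48, short of the thresholds.

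The 15 most negative sizes that could be named also belonged to genes of varied function. They ran between -0.95 and -0.60, and 14 of them had diet responses of opposite sign. They held the cytochromes P450 Cyp2j8 (-0.95) and Cyp2d13 (-0.66), the carbonyl reductase Cbr2 (-0.78), the mitochondrial folate enzyme Aldh1l2 (-0.68), the glutathione peroxidase Gpx2 (-0.61) and the peroxisomal thiolase Acaa1b (-0.69). The lists of drug and steroid P450 genes and of NRF2 and glutathione genes do not hold Cyp2j8, Cyp2d13, Cbr2 or Gpx2. In them 1 of 30 genes (Cyp2c69) and none of 24 were negative and none was positive, beside 3.71% and 2.04% of all genes. The remaining genes were Tm6sf2, Apol7c, Fthl17f, Adcy2, Cracr2a, Myod1, Cxcl1, Atp2a1 and Lzts1, of which Myod1 and Atp2a1 are known for skeletal muscle. All of the 15 except Cbr2, Acaa1b, Tm6sf2 and Lzts1 lay below the median level of all genes.

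Cbr2 was the exception with responses of the same sign. It read 7.34, 6.73, 6.53 and 6.29 in HFD NiPKO and 7.48, 7.99, 8.15 and 7.70 in chow NiPKO kidneys, and 6.38, 6.20, 6.20 and 6.40 in HFD CTRL and 6.76, 6.58, 6.56 and 6.62 in chow CTRL kidneys. The chow NiPKO kidneys lay above all others. HFD lowered Cbr2 by 1.11 in NiPKO kidneys (adjusted p = 0.014), against a difference of -0.33 in CTRL kidneys, with an interaction of -0.78 (standard error 0.25, adjusted p = 0.49). Tm6sf2, whose product loads lipid onto lipoproteins, read 7.39 to 7.53 in HFD NiPKO, 7.55 to 7.88 in chow NiPKO, 8.07 to 8.43 in HFD CTRL and 7.54 to 8.11 in chow CTRL kidneys. HFD NiPKO was the lowest group and HFD CTRL the highest, and the interaction was -0.65 (standard error 0.16, adjusted p = 0.44). Adcy2, an adenylyl cyclase, had an interaction of -0.61 (standard error 0.13, adjusted p = 0.34), with all 4 HFD CTRL kidneys, at 5.09, 4.91, 4.93 and 4.89, above the chow CTRL kidneys, at 4.72, 4.58, 4.59 and 4.67.

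**Figure D3:**
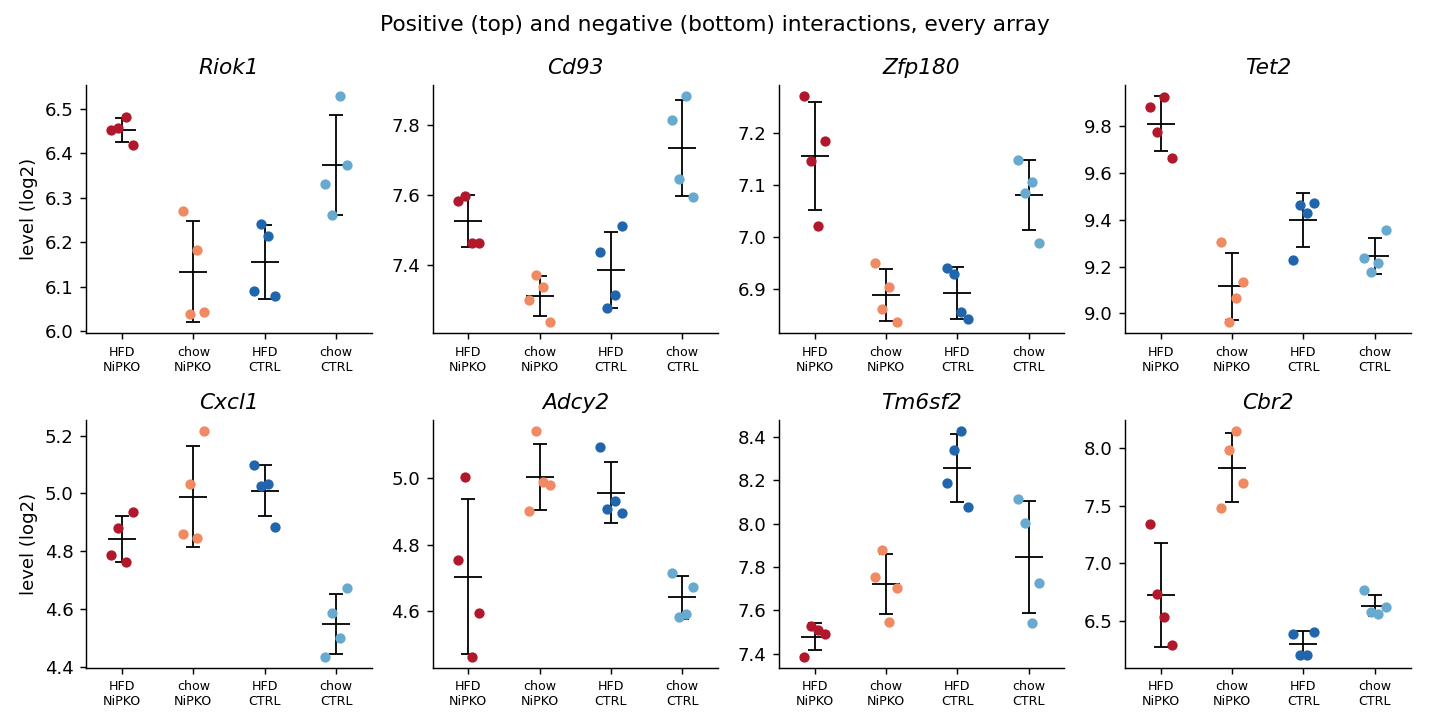
Level (log2) of 4 genes with a positive interaction (top) and 4 with a negative one (bottom) on every array, with HFD NiPKO, chow NiPKO, HFD CTRL and chow CTRL kidneys left to right. Bars give the mean and SD (n = 4). Riok1, Cd93 and Zfp180 cross between the genotypes, Tet2 is high in HFD NiPKO kidneys, Cxcl1 is low in chow CTRL kidneys and Cbr2 is high in chow NiPKO kidneys.

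Genes of lipid handling that PPARα controls formed the most negative of the lists examined. Of 34 listed genes 31 were measured, and 29 of these had an interaction below 0. Their median was -0.19, beside 0.00 over all genes, and it was -0.23 after quantile normalization. The list's diet response had a median of 0.14 in NiPKO and 0.25 in CTRL kidneys. HFD raised 4 of the genes and lowered 1 in NiPKO kidneys, where 2.26% and 2.21% of all genes were called. It raised 13 and lowered none in CTRL kidneys, where 2.3% and 2.34% were. The difference between these counts was not tested. The interaction itself was called for 3 genes only, negative for Acaa1b and Fgf21 and positive for Cidec. Of all genes 3.71% were called negative and 2.04% positive. With 1 array left out at a time the median stayed between -0.25 and -0.13. The genes share the arrays and a regulator, and are not independent of each other.

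Acaa1b, a thiolase of peroxisomal β-oxidation, read between 8.59 and 9.05 in HFD NiPKO, 8.51 and 9.31 in chow NiPKO, 9.08 and 9.61 in HFD CTRL and 8.33 and 9.04 in chow CTRL kidneys. The diets overlapped in NiPKO kidneys and did not in CTRL kidneys (interaction -0.69, standard error 0.25, adjusted p = 0.53). Cyp4a14, a fatty acid ω-hydroxylase and a sensitive PPARα target, read 10.58, 11.75, 12.13 and 12.06 in HFD NiPKO and 12.12, 10.85, 11.60 and 11.27 in chow NiPKO kidneys, and 12.03, 12.41, 12.24 and 12.10 in HFD CTRL and 11.39, 11.47, 7.41 and 10.28 in chow CTRL kidneys. All HFD CTRL kidneys lay above all chow CTRL kidneys, and the NiPKO kidneys of both diets overlapped. Its interaction of -1.89 was larger than that of any called gene but carried a standard error of 0.91 and did not pass (adjusted p = 0.62). Without replicate 3 of the chow CTRL kidneys, at 7.41, it was -0.98.

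Smaller values of the same sign ran through the pathway. Fabp1, a fatty acid binding protein, differed between the diets by 0.45 in NiPKO and by 0.86 in CTRL kidneys, the acyl-CoA thioesterase Acot2 by 0.21 and 0.40, the mitochondrial carnitine carrier Slc25a20 by 0.20 and 0.43, and the β-oxidation thiolase Acaa2 by 0.22 and 0.43. Their interactions, between -0.41 and -0.19, did not pass the thresholds. In Acaa2 the response reached an adjusted p of 0.033 in CTRL and of 0.28 in NiPKO kidneys, which does not show that the responses differ. Fgf21, a fasting hormone gene, was close to the array's lower range, with an interaction of -0.33 that fell short of the thresholds after quantile normalization (-0.26). Mitochondrial β-oxidation as a list had a median interaction of -0.05, with 14 of 18 genes below 0 and none called. Without chow NiPKO replicate 2 it was -0.11 and without chow NiPKO replicate 4 it was -0.02. Complex I (median 0.02 over 33 genes, -0.01 without HFD NiPKO replicate 2) and the citrate cycle (median 0.03 over 21 genes, 0.06 without chow CTRL replicate 3 and 0.02 without chow CTRL replicate 2) had no called gene, and Ppara itself had an interaction of 0.10, Esrra of -0.13 and the PGC-1α relative Ppargc1b of -0.09, none of them called.

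**Figure D4:**
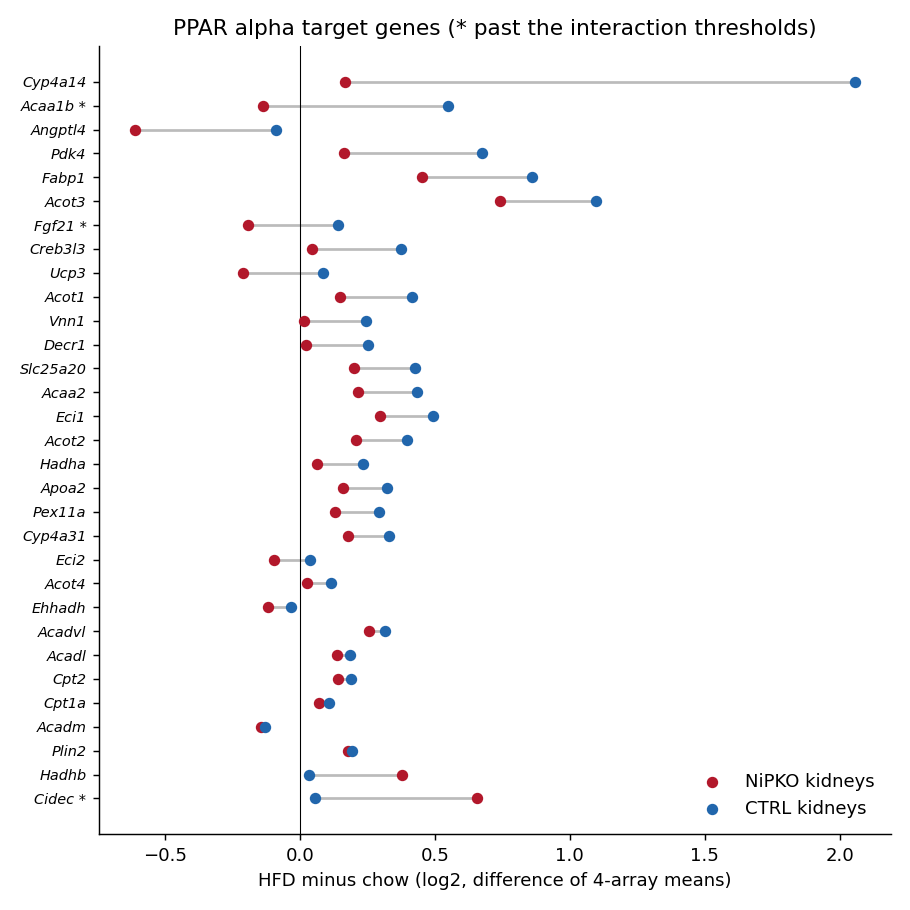
HFD minus chow (log2, difference of means of 4 arrays) in NiPKO and in CTRL kidneys for the 31 PPARα target genes measured, ordered by their interaction from the most negative at the top, with called genes starred. The NiPKO point lies to the left of the CTRL point in 29 genes and to the right in Hadhb and Cidec.

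The promoter of Fabp1 is shown because its rat counterpart is known to hold a PPAR element close to the start. The sequence is RefSeq's for GRCm38.p6, chr6:71199629-71199928 on the + strand, with 250 bases before and 50 after the start, and the capitals mark the nuclear receptor motif AGGTCA or its reverse complement.
Fabp1: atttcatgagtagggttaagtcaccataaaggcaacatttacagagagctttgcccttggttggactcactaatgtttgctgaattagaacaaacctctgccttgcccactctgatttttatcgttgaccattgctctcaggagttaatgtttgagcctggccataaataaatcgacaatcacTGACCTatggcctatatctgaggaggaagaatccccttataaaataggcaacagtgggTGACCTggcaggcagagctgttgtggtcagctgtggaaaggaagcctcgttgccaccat
Of the 25 genes of the list with a promoter in the table, 10 held that motif on either strand, against 18.1% of all 27025 genes, and 4 held the ERR form AAGGTCA, which contains it, against 5.38%. A match is a description of the letters and not of a bound site.

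Lists with a positive median included branched-chain amino acid breakdown, heat shock proteins, cytokine signalling and distal nephron markers. They consisted mostly of brighter genes, whose median interaction was already 0.05 as deposited. In branched-chain amino acid degradation 22 of 23 genes were above 0, and the median was 0.09 (0.09 after quantile normalization). Bcat2 alone was called, beside 2.04% of all genes positive, though not after quantile normalization. Bcat2, the mitochondrial transaminase of the pathway, differed between the diets by -0.04 in NiPKO and was lowered by 0.32 in CTRL kidneys. The list's diet response had a median of -0.04 in NiPKO and -0.16 in CTRL kidneys, and 3 genes in NiPKO and 7 in CTRL kidneys were called lower on HFD, beside 2.21% and 2.34% of all genes. The difference between these counts was not tested.

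Heat shock proteins and their partners had a median of 0.12 (0.11 after quantile normalization), with 24 of 27 genes above 0. Dnajb4 and Ahsa2, a cochaperone of HSP70 and an activator of HSP90, were called, both short of the thresholds after quantile normalization. HFD lowered none of the genes in NiPKO kidneys and 5 in CTRL kidneys, beside 2.21% and 2.34% of all genes, without a test of the difference between these counts, and the diet response had a median of -0.03 in NiPKO and -0.15 in CTRL kidneys. JAK/STAT cytokine signalling had a median of 0.13 (0.08 after quantile normalization), and 26 of 31 genes were above 0. Its called gene was Ccnd2, a cyclin of the G1 phase, with 7.58, 7.40, 7.33 and 7.54 in HFD NiPKO, 7.16, 6.99, 7.25 and 7.03 in chow NiPKO, 7.29, 7.05, 7.38 and 7.36 in HFD CTRL and 7.44, 7.27, 7.36 and 7.33 in chow CTRL kidneys. The HFD NiPKO kidneys lay above all chow NiPKO kidneys, and the CTRL groups overlapped (0.44, standard error 0.12, adjusted p = 0.45). HFD raised 7 genes of this list in NiPKO kidneys and 1 in CTRL kidneys, beside 2.26% and 2.3% of all genes, and the difference between these counts was not tested. MHC and antigen presentation had a median of 0.14 over 19 genes (0.11 after quantile normalization), and it was 0.08 without chow CTRL replicate 1. Among Psmb8, H2-Aa and Tap2, 2 were positive and 1 negative, beside 2.04% and 3.71% of all genes. After quantile normalization 1 gene of the list was positive and none negative. ATF4 targets of the integrated stress response had a median of -0.05 over 24 genes, with Aldh1l2 and Fgf21 negative, beside 3.71% of all genes. With 1 array left out this median lay between -0.11 (without HFD NiPKO replicate 1) and -0.01 (without chow NiPKO replicate 1). Cholesterol synthesis was lower on HFD in both genotypes, with a median of -0.24 in NiPKO and -0.27 in CTRL kidneys. Of its 19 genes 9 and 11 were called lower, beside 2.21% and 2.34% of all genes. Its median interaction was 0.06 (0.00 after quantile normalization, 0.14 without chow NiPKO replicate 1 and 0.03 without HFD NiPKO replicate 2), and Sqle, the squalene epoxidase, was called at 0.48.

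**Figure D5:**
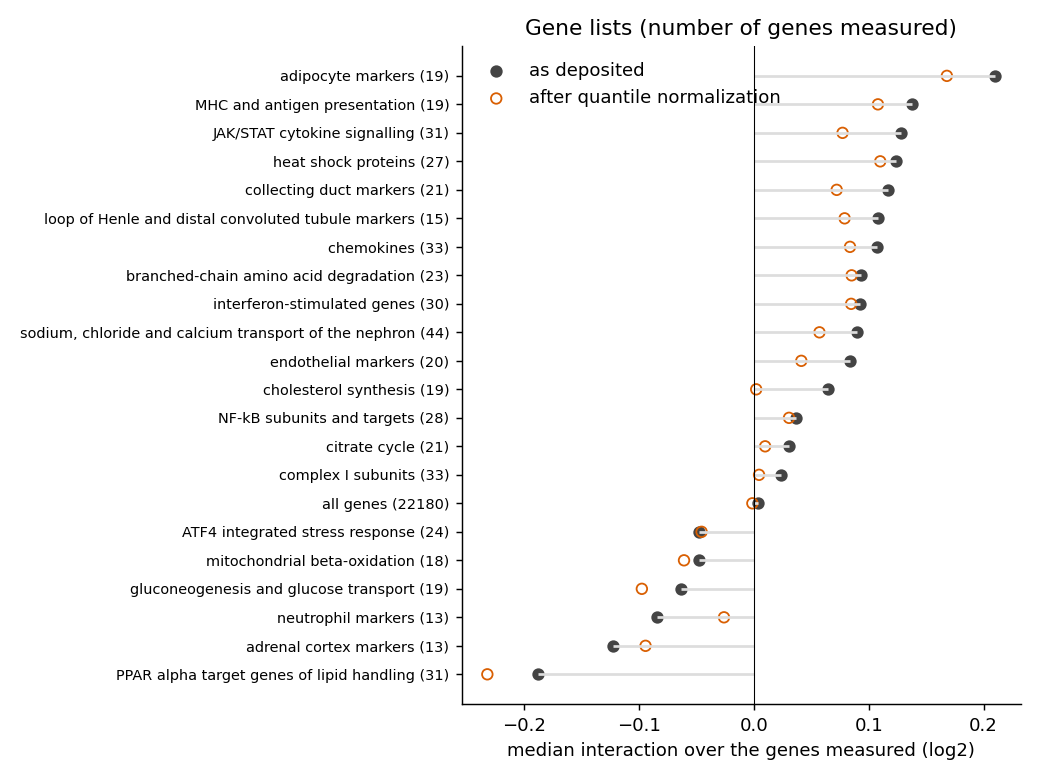
Median interaction (log2) over the measured genes of 21 lists and of all genes, whose number stands in brackets, as deposited and after quantile normalization. PPARα targets lie lowest, at -0.19 and -0.23, and adipocyte markers highest, at 0.21 and 0.17, and most positive medians are smaller after quantile normalization.

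Sodium, chloride and calcium transport genes had a median of 0.09 over 44 genes, loop of Henle and distal convoluted tubule markers one of 0.11 over 15 genes, and collecting duct markers one of 0.12 over 21 genes. They were 0.06, 0.08 and 0.07 after quantile normalization. The loop list was 0.17 without chow CTRL replicate 4 and the collecting duct list 0.19 without chow CTRL replicate 3. Slc26a4, the chloride and bicarbonate exchanger pendrin of intercalated cells, was called at 0.41 (standard error 0.16, adjusted p = 0.54), with 9.18, 8.79, 9.09 and 9.15 in HFD NiPKO, 8.76, 9.06, 8.99 and 8.88 in chow NiPKO, 8.74, 8.98, 8.52 and 8.57 in HFD CTRL and 8.92, 9.22, 8.96 and 8.86 in chow CTRL kidneys. The diets overlapped in both genotypes, and 2.04% of all genes were called positive. Klhl3, an adaptor for the breakdown of the kinases that control the sodium chloride cotransporter, was called at 0.27 (0.21 and short of the thresholds after quantile normalization). The transporters themselves were not, with Slc12a1 at 0.18, Slc12a3 at 0.10 and the sodium channel subunits Scnn1a, Scnn1b and Scnn1g at 0.18, -0.05 and 0.03. Proximal tubule markers had a median of 0.03 with none of 21 called, and 0.01 without chow NiPKO replicate 2. In whole kidney a change in the share of a cell type and a change in RNA per cell cannot be told apart. Glucose handling went the other way, with a median of -0.06 over 19 genes. It was -0.10 after quantile normalization, -0.14 without chow NiPKO replicate 1 and -0.04 without HFD CTRL replicate 2. The list's diet response, however, had a median of 0.12 in NiPKO and 0.05 in CTRL kidneys, which does not follow the sign of the interaction. As deposited 1 gene was negative, beside 3.71% of all genes, and after quantile normalization 4 were. The gene called as deposited was Slc5a1, the sodium glucose cotransporter of the late proximal tubule, at -0.46. Slc5a1 differed between the diets by 0.19 in NiPKO kidneys and was raised by HFD by 0.65 in CTRL kidneys, where HFD replicate 3 stood out at 9.78 from the other HFD arrays at 8.96 to 9.09.

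Called inflammatory genes were found in both directions. The chemokine, NF-κB, interferon and Toll-like receptor lists had medians above 0 (0.08, 0.03, 0.08 and 0.05 after quantile normalization). Complement and acute phase genes (29), B cell markers (13) and T and NK cell markers (17) had medians of -0.02, -0.01 and -0.03. In them 2, 0 and 0 genes were positive and 3, 2 and 2 negative. As deposited, each of these medians turned above 0 in some fits with 1 array left out. After quantile normalization the medians were -0.01, 0.00 and 0.05. In the same order, 2, 0 and 2 genes were then positive and 1, 1 and 0 negative, so these calls moved with the scaling of the arrays. Of 33 chemokines 3 were positive and 4 negative, beside 2.04% and 3.71% of all genes, with 21 above 0 and a median of 0.11 (0.05 without chow CTRL replicate 2). Of 28 NF-κB subunits and targets 2 were positive and 1 negative, with 18 above 0 and a median of 0.04 (0.01 without chow NiPKO replicate 2 and 0.07 without chow NiPKO replicate 3). Of 30 interferon-stimulated genes 1 was positive (Iigp1), with 24 above 0 and a median of 0.09 (0.06 without chow NiPKO replicate 2 and 0.14 without HFD NiPKO replicate 4). Of 23 Toll-like receptor genes and adaptors 1 was positive (Lbp), with 15 above 0 and a median of 0.10 (0.04 without chow CTRL replicate 2). Cxcl1, a chemokine that draws neutrophils and a classical NF-κB target, had the smallest p of the listed genes. It read 4.79, 4.88, 4.76 and 4.93 in HFD NiPKO, 4.86, 5.03, 4.85 and 5.22 in chow NiPKO, 5.10, 5.03, 5.03 and 4.89 in HFD CTRL and 4.44, 4.59, 4.50 and 4.67 in chow CTRL kidneys. The chow CTRL kidneys lay below the other 12 arrays, and the diets overlapped in NiPKO kidneys. Cxcl1 differed between the diets by -0.15 in NiPKO kidneys and was raised by HFD by 0.46 in CTRL kidneys (adjusted p = 0.018), and the interaction was -0.61 (standard error 0.12, adjusted p = 0.23). These levels are below the median of all genes.

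Rel, the gene of the NF-κB subunit c-Rel, went the other way. It read 6.83, 6.96, 6.75 and 6.93 in HFD NiPKO and 6.59, 6.49, 6.65 and 6.34 in chow NiPKO kidneys, without overlap, and 6.74, 6.51, 6.75 and 6.63 in HFD CTRL and 6.71, 6.60, 6.93 and 6.47 in chow CTRL kidneys, which overlapped (0.37, standard error 0.13, adjusted p = 0.52). Birc2, an inhibitor of apoptosis and NF-κB target, was called at 0.27, and fell short after quantile normalization at 0.22. Of 28 immediate early genes 3 were positive, Jun at 0.48, Btg2 at 0.39 and Klf6 at 0.32, and 2 negative, Dusp2 at -0.32 and Egr4 at -0.31, beside 2.04% and 3.71% of all genes. The list had 15 genes above 0 and a median of 0.01, which was -0.06 without chow CTRL replicate 3. The promoter of Cxcl1 is given since it carries an NF-κB site, RefSeq GRCm38.p6, chr5:90890995-90891294 on the + strand, and the capitals mark the core GGANTTTCC, which begins at position -70 from the start of the gene.
Cxcl1: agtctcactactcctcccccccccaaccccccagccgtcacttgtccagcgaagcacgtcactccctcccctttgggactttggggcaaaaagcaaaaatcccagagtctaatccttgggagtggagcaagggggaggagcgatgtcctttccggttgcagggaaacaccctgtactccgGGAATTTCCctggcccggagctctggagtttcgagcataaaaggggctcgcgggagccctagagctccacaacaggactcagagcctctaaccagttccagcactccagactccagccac
On both strands, 1.45% of all genes held this core in the same window. Among the other genes whose promoters were searched, Btg2, Slc26a4 and Zfp180 held it. Those searched were the called named genes and the PPARα targets, many of them chosen by their values. These matches are therefore not set against that share.

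Markers of adipocytes had the highest median of the lists examined, 0.21 over 19 genes, and 1 array moved with it. Adipoq and Cidec, the fat hormone adiponectin and a lipid droplet protein, were called at 0.47 and 0.60, beside 2.04% of all genes positive. Cidec read 6.75, 6.08, 6.07 and 5.67 in HFD NiPKO, 5.64, 5.56, 5.44 and 5.29 in chow NiPKO, 5.39, 5.98, 5.28 and 5.77 in HFD CTRL and 5.33, 5.97, 5.41 and 5.48 in chow CTRL kidneys. Replicate 1 of the HFD NiPKO kidneys was the highest, and it also held Ucp1, the uncoupling protein of brown fat, at 7.96, where the other 15 arrays lay between 4.47 and 5.07. Over the list this array lay 0.28 above the genes' means, and the other arrays between -0.13 and 0.06. Without it the median interaction was 0.03. The part of fat around the kidney in these values was not tested. Of the other cell types, adrenal cortex markers had a median of -0.12 over 13 genes, with Cyp11a1 called negative at -0.34. After quantile normalization Cyp11a1 was -0.27 and short of the thresholds, and 1 gene of the list was positive and none negative. Neutrophil markers had a median of -0.08 over 13 genes, with Mpo called negative. This list's median was -0.03 after quantile normalization, where none of its genes was called, and -0.04 without chow NiPKO replicate 2. Macrophage markers had a median of 0.03 with none called, and endothelial markers one of 0.08 over 20 genes with Cldn5 called positive. Of all genes 3.71% were called negative and 2.04% positive. The macrophage median turned below 0 in 6 of 16 fits with 1 array left out, down to -0.03 without chow NiPKO replicate 2 and up to 0.08 without HFD CTRL replicate 1, and the endothelial median was 0.02 without chow CTRL replicate 1. The defining adrenal genes Cyp11a1, Cyp11b1 and Star read at most 5.94 on any array.

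The smallest p of all genes in the interaction belonged to Mir92b, a miRNA gene. miRNAs are short RNAs that lower the output of mRNAs matching their seed, bases 2 to 8. The array reads the RNA of the gene locus, and which of the primary, hairpin and mature forms it measured was not known. Of 478 miRNA genes 14 were positive (2.93%) and 28 negative (5.86%), beside 2.04% and 3.71% of all genes. They were mostly dim, with 89 of the 478 above the median level of all genes. Among all 11090 genes below that level 154 were positive and 671 negative. After quantile normalization 19 miRNA genes were positive and 24 negative. The sequences below belong to genes with a small p, to both pairs of called loci that share a seed and to a pair of neighbours in a cluster, and were chosen after their values were seen. They are RefSeq's, with GRCm38.p6 positions, and the capitals mark the seed.
miR-92b-3p of Mir92b (chr3:89227126-89227147, - strand): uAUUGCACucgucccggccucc
miR-194-5p of Mir194-1 (chr1:185313325-185313346, + strand) and of Mir194-2 (chr19:6264658-6264679, + strand): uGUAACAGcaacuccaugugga
let-7b-5p of Mirlet7b (chr15:85707325-85707346, + strand): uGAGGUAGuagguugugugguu
let-7f-5p of Mirlet7f-2 (chrX:151912353-151912374, + strand): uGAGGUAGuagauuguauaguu
miR-17-5p of Mir17 (chr14:115043684-115043706, + strand): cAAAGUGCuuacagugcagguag
miR-19a-3p of Mir19a (chr14:115044048-115044070, + strand): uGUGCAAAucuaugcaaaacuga
miR-532-3p of Mir532 (chrX:7248419-7248440, - strand): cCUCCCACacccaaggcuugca

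Mir92b read 6.78, 6.72, 6.49 and 6.76 in HFD NiPKO, 7.09, 7.11, 7.16 and 7.09 in chow NiPKO, 6.81, 7.01, 6.87 and 6.98 in HFD CTRL and 6.66, 6.49, 6.58 and 6.80 in chow CTRL kidneys. HFD lay below chow in NiPKO and above chow in CTRL kidneys, without overlap in either, and the interaction was -0.71 (standard error 0.11, adjusted p = 0.12). Mir194-1 and Mir194-2, on different chromosomes and with the same miR-194-5p sequence, were both negative at -0.39 and -0.63. Signal from that mature form could not be assigned to either gene, while their 3p sequences differ. Mirlet7b and Mirlet7f-2, which share the let-7 seed, went opposite ways at 0.63 (standard error 0.23, adjusted p = 0.52) and -0.29 (standard error 0.13, adjusted p = 0.57), on mean levels of 4.46 and 2.60. Mir17 and Mir19a, neighbours in the cluster on chromosome 14 with different seeds, were both positive at 0.30 and 0.40, on levels of 3.23 to 3.90 that are near the low end of the array. Mir532 had an interaction of 0.60 (standard error 0.13, adjusted p = 0.35), where HFD NiPKO kidneys read 4.71, 4.63, 4.85 and 4.66, chow NiPKO kidneys 4.44, 4.31, 4.45 and 4.34, HFD CTRL kidneys 4.31, 4.22, 4.14 and 4.28 and chow CTRL kidneys 4.66, 4.63, 4.61 and 4.14.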

How the data were processed

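Whole kidney RNA was hybridised to Affymetrix Mouse Gene 2.0 ST arrays. The deposited table holds 1 log2 value per probe set and array, made by the authors with Partek per the submitters' processing notes. No source used here gives their normalization, which is therefore not known, and the log2 scale was read from the values, which run from 2.07 to 13.8. Array medians lay between 5.35 and 5.40. Arrays have no counts, and their number, 4 per group, limits the precision.

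Of 41345 probe sets, 23521 had 1 gene symbol, 1820 had several and 16004 had none in the platform annotation. The brightest probe set stood for each of the 22180 genes, of which 1082 had more than 1. A model with 1 mean per group was fitted to all arrays in limma 3.58.1 (R 4.3.3) by lmFit and eBayes, and adjusted p-values are Benjamini-Hochberg's over all genes. The fit was tested on simulated data. The labels call the samples of a group biological replicates without naming the animal of each, and the p-values cover the spread among these samples.

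The members, lists and rules were chosen with earlier results of these data known. Genes could be named if they were among the 15 most positive or 15 most negative called interactions, the 10 smallest p, the 4 smallest p of a list, or genes the study names. Predicted genes, smell and taste receptors and small RNAs were left out of the 15 most positive, the 15 most negative and the 10 smallest p. Other named genes were chosen after their values were seen. Lists, 54 with at least 3 measured genes, are described by counts and medians without a test. The alternatives were quantile normalization, median centring, only the genes above the median level, an ordinary linear model in place of the Student's test that the study's methods name, a robust prior with a trend, weights for each array, averaged probe sets, a stricter fold change of 1.5, a replicate block and leaving out each array.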

Additional observations from a re-analysis of the deposited data

Results flagged for a closer look

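Each called gene of the naming rule and each called miRNA gene was examined in each group for an array far from the other 3, by its gap to the nearest array over the group's range (Dixon's test). Of 532 gene and group pairs 24 passed. Chance alone flags about 1 in 20 groups, so a number of this order carries no pattern. In HFD NiPKO kidneys these were Cyp4f15 at 5.10 on replicate 2 (4.62 to 4.70 on the others), Sqle at 7.99 on replicate 3 (8.44 to 8.49 on the others), Psmb8 at 6.12 on replicate 1 (5.79 to 5.83 on the others), H2-Aa at 8.96 on replicate 4 (9.26 to 9.29 on the others), Pax5 at 5.48 on replicate 3 (5.04 to 5.11 on the others), Klf6 at 9.41 on replicate 2 (9.33 to 9.34 on the others), Mir1963 at 6.32 on replicate 2 (6.42 to 6.43 on the others) and Mir30b at 5.20 on replicate 2 (4.99 to 5.02 on the others). In chow NiPKO kidneys these were Dusp2 at 6.18 on replicate 1 (6.45 to 6.50 on the others) and Mir5108 at 4.34 on replicate 1 (4.16 to 4.18 on the others). In HFD CTRL kidneys these were Gpx2 at 4.19 on replicate 3 (3.44 to 3.57 on the others), Apom at 8.13 on replicate 3 (7.81 to 7.85 on the others), Slc5a1 at 9.78 on replicate 3 (8.96 to 9.09 on the others), Cldn5 at 5.83 on replicate 1 (5.64 to 5.67 on the others), Mir212 at 5.41 on replicate 4 (5.65 to 5.70 on the others) and Mir301b at 6.25 on replicate 1 (6.61 to 6.63 on the others). In chow CTRL kidneys these were Klk1b8 at 4.97 on replicate 2 (4.32 to 4.41 on the others), Cyp2j8 at 5.20 on replicate 4 (4.58 to 4.67 on the others), Lzts1 at 5.40 on replicate 1 (5.90 to 5.99 on the others), Ssxa1 at 3.03 on replicate 2 (3.12 to 3.13 on the others), Maged2 at 6.47 on replicate 1 (6.59 to 6.61 on the others), Ccl4 at 5.44 on replicate 1 (5.75 to 5.77 on the others), Orm2 at 3.50 on replicate 1 (3.92 to 4.00 on the others) and Mir532 at 4.14 on replicate 4 (4.61 to 4.66 on the others). All values are log2 levels. No interaction was added here for a difference between groups, since none passed after adjustment over all genes.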

How the results depend on the processing

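The number of genes past the thresholds in the interaction, 1274, was 453 when only genes above the median level entered and 74 at a fold change over 1.5. HFD against chow in NiPKO kidneys gave 992 genes, with 641 and 97 under these settings, and in CTRL kidneys 1030 genes, with 622 and 115. The filter and the stricter fold each leave fewer genes by construction. The share of positive interactions, 35.5%, was 66.9% above the median level, 46.3% after median centring and 48.4% after quantile normalization. At an adjusted p under 0.05 the interaction gave 0 genes, but 1 above the median level (Mir92b, 0.044), 1 with the ordinary linear model (Ssxa1, 0.0097) and 2 without replicate 4 of the chow CTRL kidneys (Mir532, 0.012, and Mir92b, 0.022). The smallest adjusted p over all 24 alternatives ranged from 0.00971 to 0.38. Leaving out 1 array at a time gave 1154 to 1551 genes for the interaction, 32.4% to 42.3% positive, 0 to 2 genes after adjustment, 950 to 1346 genes for HFD in NiPKO and 980 to 1319 for HFD in CTRL kidneys. The share of opposite diet responses was 91.0% as deposited and between 85.0% and 90.9% under the 3 alternatives tried. Each fit chose its genes by the difference between the diet responses, which favours opposite signs, so these shares only describe the called genes. The replicate block gave 1324 genes in the interaction, 998 and 1038 in the diet comparisons and 36.6% positive. The replicate numbers pair nothing in the labels, and 3 of 24 same-numbered pairs of arrays had deviations from their group means that correlated above 0.1. Of 133 named or miRNA genes past the thresholds, none changed sign under any alternative and 67 passed under all that applied. Quantile normalization took 32 of them below the thresholds and the ordinary linear model 30, and the cause was not tested. The leave-one-out medians of the lists were added after seeing the data. The adipocyte list ranged from 0.03 without replicate 1 of the HFD NiPKO kidneys to 0.32 without replicate 3.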

Other observations

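Small nucleolar RNA genes, which guide the chemical modification of ribosomal and other RNAs, were the gene family by name with the largest share of positive interactions among the 9 families counted after the values were seen. Of 73 measured, 8 were positive (11%) and 1 negative (1.37%), beside 2.04% and 3.71% of all genes, and the median interaction was 0.16 (0.14 after quantile normalization). The positive ones were Snord13 (1.14), Snord1b (0.65), Snord70 (0.63), Snord47 (0.50), Snora2b (0.49), Snord11 (0.45), Snord90 (0.31) and Snord35b (0.29), and the negative one was Snord8 (-0.30). HFD raised 22 of the family in NiPKO and 6 in CTRL kidneys, and lowered none in NiPKO and 2 in CTRL kidneys, where of all genes 2.26% and 2.3% were raised and 2.21% and 2.34% lowered. The difference between these counts was not tested. Over the family, HFD NiPKO arrays lay 0.03 to 0.15 above the genes' means, chow NiPKO arrays -0.26 to -0.03, HFD CTRL arrays 0.02 to 0.06 and chow CTRL arrays -0.09 to 0.06. Replicate 2 of the chow NiPKO kidneys was the lowest array, and the median was 0.11 without it. Recovery of short RNAs was not tested.

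Zinc finger genes of the Zfp series held 16 positive (4.32%) and 9 negative (2.43%) of 370. Defensin genes held 1 positive and 7 negative (12.7%) of 55 and keratin genes 1 positive and 7 negative (13.2%) of 53. These last families are dim in kidney, and after quantile normalization the negative counts were 6 and 3. Smell receptor genes, which are likewise dim, held 11 positive (0.995%) and 50 negative (4.52%) of 1105 as deposited, and 19 and 29 after quantile normalization.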
